A study of Mus musculus with 6 samples.

Results

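Forkhead genes encode transcription factors that bind DNA through a winged-helix domain, and 6 of them that mark embryonic mesenchyme were named for description here: Foxl1, Foxf1, Foxf2, Foxc1, Foxc2 and Foxd1. They were picked by name, with the difference between the genotypes already known, so the levels below are a description. Calls by the fit across all genes are given for them only as counts beside the share of all genes, and support nothing. Of the 6 names, 5 matched a row of the deposited table of 14366 genes. Foxf2 is not analysed here. All 5 matched genes reached 1 TPM (a transcript level scaled for gene length and library total) in at least 3 libraries, and did so in all 6.

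The tissue was the mesonephros of male mouse embryos at embryonic day 16.5, the structure that holds the Wolffian duct and its mesenchyme. The 3 control samples carried Osr2Cre and were Gata2-flox/+, with 1 floxed and 1 unfloxed Gata2 allele. The 3 Gata2cKO samples carried the same Osr2Cre and were Gata2-flox/flox. The groups therefore share the recombinase, whose expression follows Osr2, and the controls are heterozygous for the floxed allele. Cells without the recombinase stay unrecombined, and which cells of the tissue recombined was not measured here. The labels do not say whether samples came from separate embryos, so the spread between them may be technical in part.

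Forkhead factors of this kind are best known from mesenchyme that lies next to an epithelium. Foxf1 and Foxf2 act in splanchnic mesenchyme downstream of Hedgehog ligands sent by the epithelium, and Foxl1 acts in the subepithelial mesenchyme of the gut. Foxc1 and Foxc2 overlap in function in intermediate and paraxial mesoderm and in blood and lymphatic vessels. Foxd1 marks the stroma of the developing metanephric kidney.

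The markers written for the labelled tissue were at high level as sums, but not each of them was. Summed over 12 genes of urogenital mesenchyme they ranged from 7587 to 9435 TPM in controls and from 8330 to 10449 TPM in Gata2cKO, and over 12 genes of the Wolffian duct epithelium from 976 to 1131 and from 1275 to 1305 TPM. The largest parts in controls were the widely expressed Col1a1, Col3a1 and Vim (4045 ± 659, 1606 ± 69.9 and 1070 ± 8.79 TPM), and Krt18 and Krt8 (321 ± 20.1 and 231 ± 22.9 TPM). Tbx18 of the first list was at 0.221 ± 0.119 TPM, and Ret and Pax2 of the second at 0.181 ± 0.106 and 2.12 ± 0.736 TPM. By limma 1 rose and 3 fell of 11 tested mesenchymal markers, and 2 rose and 0 fell of 11 tested epithelial ones (6 and 0 at an unadjusted p under 0.05). Of all 12300 tested genes 5.73% rose and 1.74% fell by limma, and 19.2% were higher and 8.17% lower at an unadjusted p under 0.05. Gata2 did not show the recombination at the level of the whole gene, at 465 ± 81.2 TPM in controls and 459 ± 61.9 TPM in Gata2cKO, so every direction rests on the labels. Osr2, whose expression drives the recombinase, fell to 127 ± 9.35 TPM from 261 ± 54.1 (limma adjusted p = 0.0136; 0.0605 without Gata2cKO replicate 1). Values given with ± are the mean and SD of the 3 libraries of a group (n = 3). Control replicate 1 stood apart from the other libraries, with mitochondrially encoded transcripts at 21.9% of its TPM against 13.2% to 16.3% elsewhere. The depth of the libraries is unknown, because TPM keeps no read count. In these bulk samples fewer cells of a type and less RNA per cell cannot be told apart.

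Foxl1, the factor of subepithelial gut mesenchyme, was low in control mesonephros and many times higher in Gata2cKO. Controls had 1.88, 2.94 and 1.25 TPM (replicates 1, 2 and 3), while the Gata2cKO libraries had 22.9, 33.2 and 22.5 TPM in the same order of number. The lowest Gata2cKO library was 7.63 times the highest control, so the groups lay far apart. The means were 2.02 ± 0.858 and 26.2 ± 6.07 TPM, a 12.9-fold ratio. The log2 fold change on the log2(TPM + 1) scale was 3.18 (SE 0.22), and the authors' deposited table gives 3.64. It ranked first among the 12300 tested genes for a positive difference. Leaving out any 1 library kept the ratio of means between 10.9 and 16.8. In the order of all listed genes, Foxl1 stood at percentile 22.6 of the control levels and at percentile 71.0 of the Gata2cKO levels.

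Foxc2, a factor of mesenchyme and of lymphatic valves, had the next largest difference of the 5 genes. Controls had 15.2, 31.9 and 34.5 TPM, and the Gata2cKO libraries 64.4, 87.1 and 79.6 TPM (replicates 1 to 3). The groups did not overlap, and control replicate 1 had less than the other controls. The means were 27.2 ± 10.5 and 77.0 ± 11.5 TPM, a ratio of 2.83, with a log2 fold change of 1.54 (SE 0.28). The authors' deposited table gives 1.43. Without control replicate 1 the ratio was 2.32.

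Foxf1, the Hedgehog-responsive factor of splanchnic mesenchyme, was also higher in each Gata2cKO library than in each control. The control values were 9.47, 4.54 and 6.92 TPM and the Gata2cKO values 11.9, 16.4 and 13.8 TPM, for replicates 1 to 3. The gap was narrow, as the lowest Gata2cKO library was 1.26 times the highest control. The means were 6.98 ± 2.47 and 14.04 ± 2.26 TPM, a 2.01-fold ratio and a log2 fold change of 0.95 (SE 0.22), close to the 0.96 of the authors' deposited table. The ratio was 2.45 without control replicate 1 and 1.71 without control replicate 2.

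Foxc1, the paralog of Foxc2, went the other way. It was at 45.8, 48.8 and 58.7 TPM in controls and at 34.1, 44.3 and 36.0 TPM in Gata2cKO, for replicates 1 to 3. The groups did not overlap, but Gata2cKO replicate 2 lay just below control replicate 1. The means were 51.1 ± 6.77 and 38.2 ± 5.39 TPM, 1.34-fold higher in controls, with a log2 fold change of -0.41 (SE 0.13). The authors' deposited table gives -0.49.

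Foxd1, the marker of metanephric stroma, varied more between libraries of 1 group than between the groups. Controls had 1.48, 7.62 and 8.21 TPM, and the Gata2cKO libraries 1.90, 2.85 and 6.81 TPM (replicates 1 to 3). The groups overlapped: control replicate 1 was the lowest library of all and Gata2cKO replicate 3 approached the upper controls. The log2 fold change was -0.39 (SE 0.55), and it was -1.01 without control replicate 1 and -0.06 without control replicate 3. Across controls the highest value was 5.57 times the lowest, a wider spread than the 1.28 of Foxc1.

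**Figure D1:**
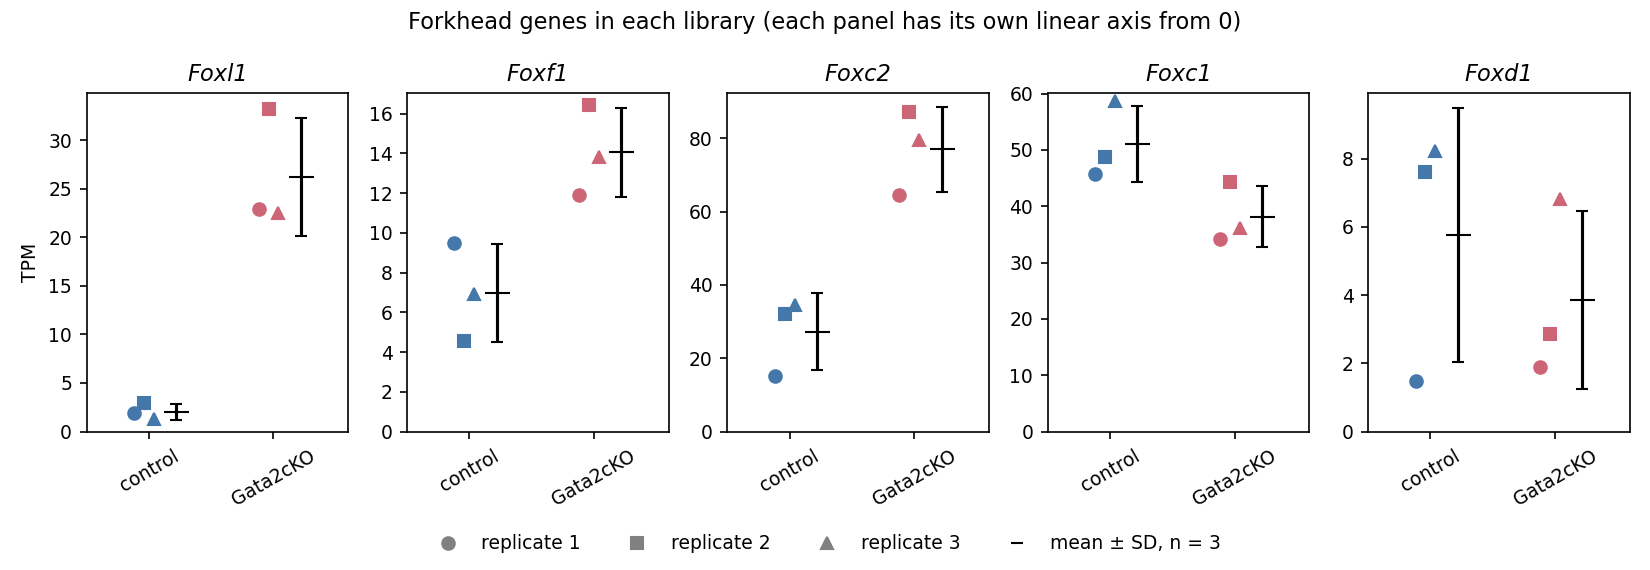
Level of each forkhead gene in TPM on the y axis, for control and Gata2cKO on the x axis. Symbols are the replicates and bars the mean ± SD (n = 3); Foxl1, Foxf1 and Foxc2 are higher in all 3 Gata2cKO libraries, Foxc1 is lower, and Foxd1 overlaps.

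Of the 5 genes, 3 were past the threshold of an adjusted p of 0.05 in the limma fit across all genes, all of them higher in Gata2cKO, where 5.73% of the 12300 tested genes were higher at that threshold (7.47% in either direction; in the authors' deposited table the same 3 genes, beside 6.69% of all genes). None was past it on the lower side (0 by limma, where the share over all tested genes was 1.74%; 1, Foxc1, at an unadjusted p under 0.05 and also in the authors' deposited table, where 6.58% of all genes were lower). Groups did not overlap, with Gata2cKO higher, for 3 of the 5 genes and for 23.4% of tested genes, and with Gata2cKO lower for 1 of the 5 and 10.5% of tested genes (33.9% in either direction). The genes were chosen on this contrast, so nothing is read from these counts. The counts moved with the settings: over the 6 removals of a library Foxl1 was counted in 6, Foxc2 in 3 and Foxf1 in 1, and Foxc1 was past the threshold on the lower side in 1 of 14 alternatives, upper-quartile scaling.

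The groups differed in the make-up of these genes as well as in their sum. The 5 genes added up to 73.8, 95.8 and 110 TPM in controls and to 135, 184 and 159 TPM in Gata2cKO, for replicates 1 to 3. Foxc1 was the most abundant of them in controls, with 55.5 ± 5.80% of the sum, and Foxc2 in Gata2cKO, with 48.4 ± 1.54%. The ratio of Foxc2 to Foxc1, in which any error of library scaling cancels, was 0.332, 0.655 and 0.587 in controls and 1.89, 1.97 and 2.21 in Gata2cKO. The order of these paralogs was thus opposite in the 2 groups in every library. Together Foxc1 and Foxc2 came to 78.3 ± 16.2 TPM in controls and 115 ± 16.4 TPM in Gata2cKO, so the lower Foxc1 did not offset the higher Foxc2. The share of Foxl1 was 2.25 ± 1.001% in controls and 16.4 ± 2.01% in Gata2cKO.

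In controls the order of mean levels was Foxc1, Foxc2, Foxf1, Foxd1 and Foxl1. Foxc1 lay above Foxc2 in every control library, whereas the ranges of Foxf1 (4.54 to 9.47 TPM) and Foxd1 (1.48 to 8.21 TPM) overlapped, as did those of Foxd1 and Foxl1 (1.25 to 2.94 TPM). In Gata2cKO the order was Foxc2, Foxc1, Foxl1, Foxf1 and Foxd1, with no overlap between neighbours. Foxl1 thus went from the lowest of the 5 to the third, and lay above Foxf1 in each Gata2cKO library (ratio 1.92, 2.02 and 1.63) and below it in each control (0.199, 0.649 and 0.180).

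**Figure D2:**
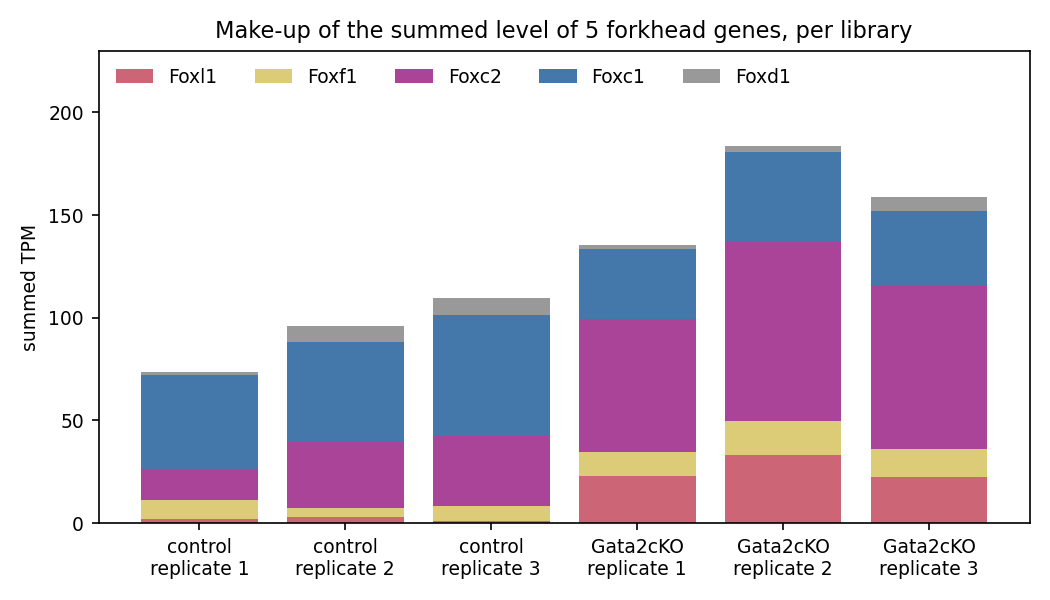
Stacked TPM of the 5 forkhead genes on the y axis for each of the 6 libraries on the x axis. The sum lies between 73.8 and 110 TPM in controls and between 135 and 184 TPM in Gata2cKO, where Foxc2 and not Foxc1 is the largest part.

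The 3 genes that were higher in Gata2cKO sit together in the genome. By GENCODE M21 (GRCm38), Foxf1 lies on chromosome 8 from 121084386 to 121088144, Foxc2 from 121116171 to 121118895 and Foxl1 from 121127940 to 121130644, all on the plus strand. The start of Foxc2 is 11.8 kb and that of Foxf1 43.6 kb before the start of Foxl1. Foxc2 and Foxl1 each have 1 exon and Foxf1 has 2. The further a gene lay from Foxl1, the smaller was its log2 fold change (3.18, 1.54 and 0.95), an order of only 3 genes that was not tested.

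Mthfsd, a gene for a protein with a methenyltetrahydrofolate synthetase domain, lies between Foxf1 and Foxc2 on the opposite strand and did not follow them. It was at 27.4, 23.2 and 26.5 TPM in controls and at 24.7, 26.5 and 25.1 TPM in Gata2cKO, so the groups overlapped. The difference on the log2 scale was -0.01 (SE 0.09, adjusted p = 0.956 by limma). Within 1 Mb of Foxl1 the table lists 13 other genes, of which 12 were tested. By limma 0 rose and 0 fell, beside 5.73% and 1.74% of all tested genes. At an unadjusted p under 0.05 they were 1 and 1, beside 19.2% and 8.17%. The authors' deposited table calls 0 higher and 1 lower, where 6.69% and 6.58% of all genes were. At such shares 12 genes can hold 0 calls, so the counts do not set the forkheads apart from their region. Log2 fold changes lay between -0.45 and 0.24. The lowest was that of Banp, at 7.46 ± 0.646 and 5.19 ± 0.740 TPM with no overlap (limma adjusted p = 0.0529). The nearest on the far sides were Irf8, a myeloid transcription factor, at 3.37 ± 0.279 and 3.63 ± 0.576 TPM, and Fbxo31, a ubiquitin ligase subunit, at 12.5 ± 1.72 and 13.9 ± 1.61 TPM. Map1lc3b, an autophagy gene, was at 126 ± 13.3 and 141 ± 6.68 TPM. None of these 3 passed (limma adjusted p = 0.696, 0.493 and 0.314).

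**Figure D3:**
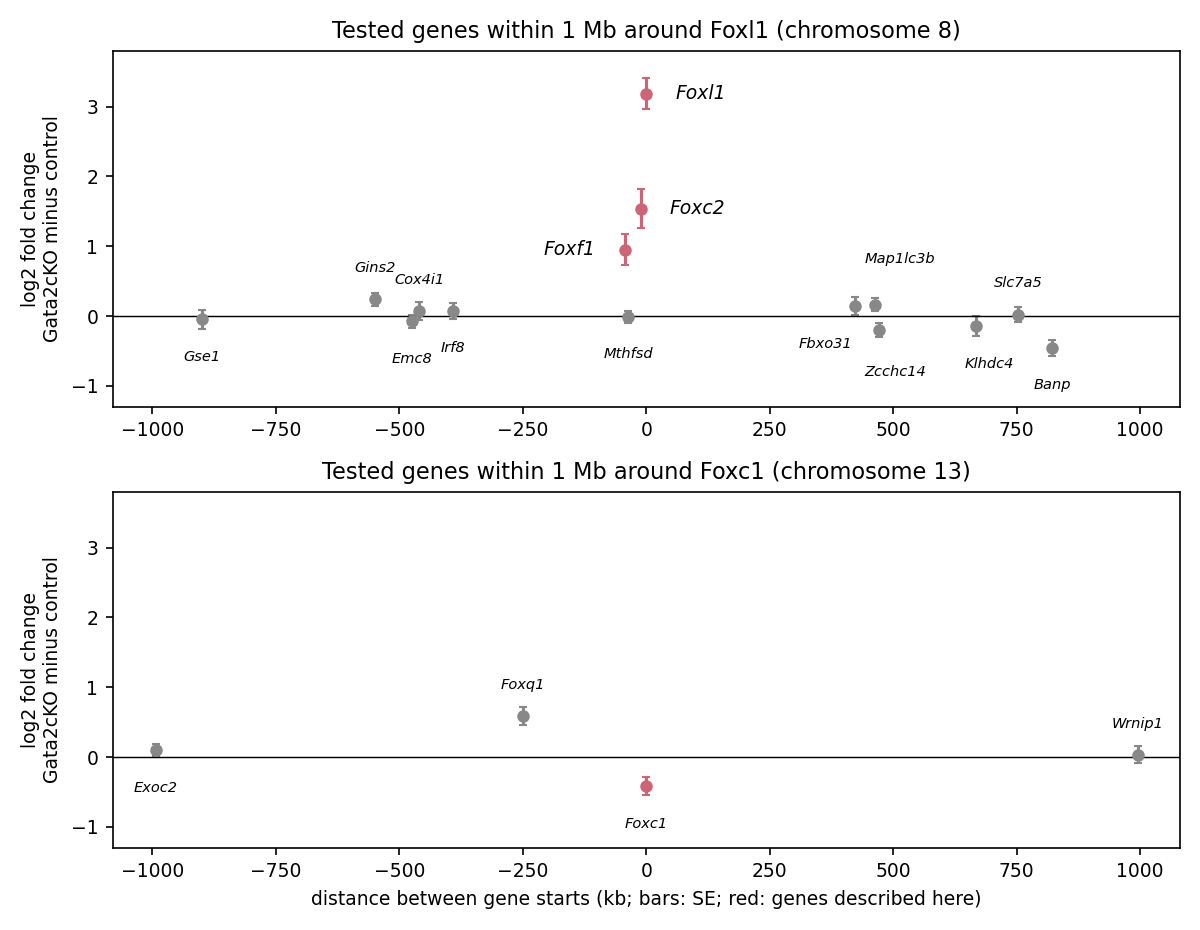
Log2 fold change of TPM + 1 with its SE on the y axis against the distance in kb from the start of Foxl1 (top) or Foxc1 (bottom), for tested genes within 1 Mb. Foxl1, Foxc2 and Foxf1 stand at 3.18, 1.54 and 0.95, and the 12 other genes around them lie between -0.45 and 0.24.

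A related cluster lies on chromosome 13. It holds Foxq1, Foxf2 and Foxc1, with Foxc1 from 31806633 to 31812476 on the plus strand (GRCm38). Foxq1, from 31556134 to 31560976 on the same strand, rose where Foxc1 was lower. It was at 5.48, 5.14 and 3.81 TPM in controls and at 6.87, 8.13 and 8.10 TPM in Gata2cKO, with no overlap. The difference on the log2 scale was 0.59 (SE 0.13, adjusted p = 0.0393 by limma), a call kept in 1 of 6 removals of a library (adjusted p = 0.129 without Gata2cKO replicate 3) and not shared by the authors' deposited table (adjusted p = 0.329). It was also lost in 4 of the 8 alternatives that keep all libraries, median-of-ratios scaling, upper-quartile scaling, no filter, and mitochondrial genes taken out. An annotated gene on the other strand, A530084C06Rik, overlaps Foxq1, and whether strand was used in counting is not stated. Of the other listed genes within 1 Mb of Foxc1, Exoc2 and Wrnip1 were tested and did not pass (limma adjusted p = 0.493 and 0.883), and Gmds was below the filter, at 0.266 ± 0.0110 and 0.378 ± 0.0278 TPM with no overlap. The authors' deposited table calls Gmds higher (adjusted p = 0.0279). Foxd1 is on the same chromosome, from 98354242 to 98359305, far from this cluster.

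Of the 5 genes, Foxc1 and Foxd1 matched an entry among the RefSeq promoters (GRCm38.p6), and their 250 bases before the start are shown because Gata2, the targeted gene, encodes a factor that binds GATA letters. Capitals mark the 4 letters GATA read on either strand, on chr13:31806396-31806645 and chr13:98353995-98354244, both of the plus strand.
Foxc1: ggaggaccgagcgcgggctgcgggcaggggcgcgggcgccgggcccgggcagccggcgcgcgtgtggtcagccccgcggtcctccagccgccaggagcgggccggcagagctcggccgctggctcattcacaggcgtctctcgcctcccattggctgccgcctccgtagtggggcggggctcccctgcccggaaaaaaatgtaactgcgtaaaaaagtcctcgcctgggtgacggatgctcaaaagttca
Foxd1: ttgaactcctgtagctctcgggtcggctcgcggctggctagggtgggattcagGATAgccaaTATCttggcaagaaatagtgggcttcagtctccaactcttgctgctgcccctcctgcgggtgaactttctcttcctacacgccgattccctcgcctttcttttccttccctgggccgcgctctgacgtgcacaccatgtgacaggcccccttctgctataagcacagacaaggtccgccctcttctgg
The Foxc1 window holds 0 such matches and the Foxd1 window 2, which begin 197 and 188 bases before the start. The 4 letters are common: 53.6% of 32851 promoter windows of this length hold them. The longer forms AGATAA as well as AGATAG, and further TGATAA as well as TGATAG, are in neither window on either strand, and in 26.5% of all windows. TGTTTAC, bound by forkhead factors, and GACCACCCA, bound by Gli factors, are also in neither, and in 3.17% and 0.225% of all. A match is not a bound site, and the search says nothing of elements outside these windows.

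Among all forkhead genes the difference was uneven. The table lists 26 of them and 23 were tested. Of the 18 tested outside the 5 genes, 1 rose (Foxq1) and 2 fell by limma, beside 5.73% and 1.74% of all tested genes, and their median log2 fold change was -0.05, where that of all tested genes was 0.05. Foxl2, a forkhead gene of gonadal and periocular cells, fell to 11.6 ± 2.93 TPM from 122 ± 22.6 (-3.30 on the log2 scale, SE 0.18, adjusted p = 0.00165 by limma). It had been the most abundant listed forkhead in controls, with 19.2 ± 1.48% of the summed forkhead TPM, and made up 2.02 ± 0.325% in Gata2cKO. Foxd2, a paralog of Foxd1, fell to 33.5 ± 3.22 TPM from 62.8 ± 7.89 (-0.88 on the log2 scale, adjusted p = 0.0108 by limma and 0.0505 if Gata2cKO replicate 1 is left out). The 5 mesenchymal genes together went from 14.6 ± 1.45% to 27.9 ± 1.47% of that sum, while the sum itself was 634 ± 70.2 TPM in controls and 570 ± 58.3 TPM in Gata2cKO.

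Foxo4, Foxm1 and Foxs1, also among the abundant forkheads, did not pass the threshold. Foxo4, a factor held in check by insulin signalling, was at 111 ± 10.4 and 123 ± 6.78 TPM (limma adjusted p = 0.341). Foxm1, a factor of dividing cells, was at 62.6 ± 4.87 and 44.1 ± 10.1 TPM, and Foxs1 at 40.3 ± 8.002 and 58.2 ± 7.60 TPM. These 2 missed it (limma adjusted p = 0.0841 and 0.0780), although their groups did not overlap. Foxm1 was past the threshold as lower in 2 of 14 alternatives, median-of-ratios and upper-quartile scaling, and in the authors' deposited table (adjusted p = 0.000945). By rank in Gata2cKO, Foxc2 stood second of the 26 after Foxo4 and Foxl1 eighth, from eighth and place 22 in controls.

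**Figure D4:**
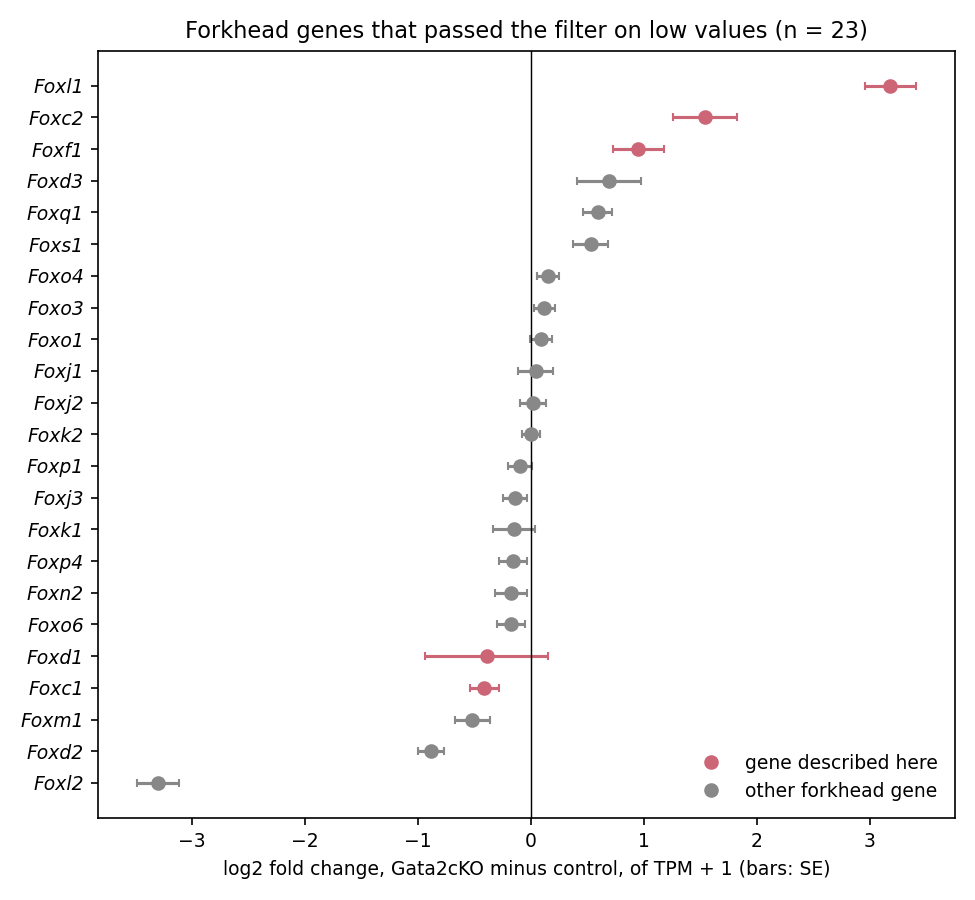
Log2 fold change of TPM + 1, Gata2cKO minus control, with its SE on the x axis, for the 23 forkhead genes that passed the filter on low values. Foxl1 and Foxl2 stand at the ends (3.18 and -3.30), and Foxl1, Foxc2 and Foxf1 are the top 3.

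One library carried the top value of most of these genes. Gata2cKO replicate 2 had the highest level within its group for Foxl1, Foxf1, Foxc2 and Foxc1, that is for 4 of the 5 genes. It also had the highest level for 14 of the 21 other listed forkheads and for 54.2% of all tested genes. The removals of that library gave ratios of 11.2 for Foxl1, 2.65 for Foxc2 and 1.84 for Foxf1.

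The Hedgehog pathway, through which epithelial ligands act on mesenchymal Foxf1 and Foxl1 in the gut, gave no common direction by limma. Of 20 tested genes 1 rose and 1 fell by limma (5.73% and 1.74% of all tested genes), with a median log2 fold change of -0.07. At an unadjusted p under 0.05, 2 were higher and 4 lower, beside 19.2% and 8.17%. The authors' deposited table calls 1 higher and 6 lower of the 22 listed, where 6.69% and 6.58% of all genes were. Gli1, a transcription factor that is itself a target of the pathway, fell to 153 ± 25.0 TPM from 238 ± 26.7 (-0.64 on the log2 scale, limma adjusted p = 0.0350), while Foxf1 was higher. Cdon, a co-receptor for the ligands, rose to 38.5 ± 0.716 TPM from 26.4 ± 1.02 (0.53 on the log2 scale, adjusted p = 0.0119 by limma). Both calls were lost without Gata2cKO replicate 1 (limma adjusted p = 0.124 and 0.0640). The Gli1 call was kept in only 2 of 6 removals of a library, and the Cdon call in 5. The ligand gene Shh was at 10.4 ± 3.72 and 9.46 ± 0.904 TPM (adjusted p = 0.854, past no threshold).

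Genes that accompany Foxl1 in the subepithelial mesenchyme of the gut moved both ways. Of 20 tested, 2 rose and 3 fell (5.73% and 1.74% of all tested genes), with a median log2 fold change of 0.10. Gdf10, a ligand of the BMP family, rose to 314 ± 8.22 TPM from 204 ± 27.2 and Wnt2b, a Wnt ligand, to 22.2 ± 2.55 TPM from 13.7 ± 2.33 (limma adjusted p = 0.0201 and 0.0309). Bmp2, another BMP ligand, fell to 10.5 ± 1.16 TPM from 20.7 ± 3.84 and Chrd, a secreted BMP antagonist, to 49.0 ± 6.76 TPM from 76.1 ± 3.72 (limma adjusted p = 0.0175 and 0.0189). When 1 library was left out, 0 to 3 rose and 0 to 4 fell, most without control replicate 1. Without Gata2cKO replicate 1, Gata2cKO replicate 3 or control replicate 2 the counts were 0 and 0.

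Among 15 markers written for gut epithelium and gut mesenchyme, 7 are listed and 5 were tested. By limma 0 rose and 0 fell, beside 5.73% and 1.74% of all tested genes. At an unadjusted p under 0.05 they were 0 and 2, beside 19.2% and 8.17%. The authors' deposited table calls 0 higher and 1 lower, where 6.58% of all genes were lower. Tff3 is the 1 called lower there (adjusted p = 0.000185), and it did not pass by limma (adjusted p = 0.0818). Its level was 10.2, 1.05 and 1.66 TPM in controls and 0.120, 0.116 and 0 TPM in Gata2cKO, for replicates 1 to 3. The summed level of the 7 listed markers was 32.5 to 42.0 TPM in controls and 29.5 to 34.4 TPM in Gata2cKO. It was led by the homeobox gene Hlx (13.8 ± 3.51 and 16.7 ± 1.68 TPM) and the galectin gene Lgals4 (12.98 ± 2.58 and 9.07 ± 1.12 TPM). The other 8, with Cdx1, Cdx2, Nkx2-3, Nkx3-2 and Barx1 among them, are not analysed here. The part of gut tissue in the Foxl1 level was not tested.

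Genes linked to Foxf factors in mesenchyme and vessels also split. Of 20 tested, 2 rose and 3 fell, beside 5.73% and 1.74% of all tested genes, with a median log2 fold change of -0.01 (0 to 2 and 1 to 4 when a library was left out). Vcam1, an adhesion molecule gene, rose to 6.53 ± 1.09 TPM from 3.27 ± 0.253 and the Wnt ligand gene Wnt2 to 1.98 ± 0.299 TPM from 1.06 ± 0.109 (limma adjusted p = 0.0136 and 0.0303). The contractile genes Myh11 and Acta2 fell to 1.85 ± 0.214 TPM from 4.49 ± 0.783 and to 196 ± 11.9 TPM from 315 ± 50.6 (limma adjusted p = 0.0114 and 0.0230). Myh11 was called in each of the 6 removals, Acta2 in 2 (adjusted p up to 0.0974, without Gata2cKO replicate 3). Vcam1 missed the threshold without Gata2cKO replicate 2 (0.0505) and Wnt2 in 4 removals (up to 0.123, without Gata2cKO replicate 1).

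Genes linked to Foxc factors in mesenchyme and vessels held a few calls, all on the higher side. At the shares of all genes, 19 genes can hold 0 lower calls, so no direction is read from this. Of 19 tested, 3 rose and 0 fell by limma (6 and 0 at an unadjusted p under 0.05; 3 and 0 in the authors' deposited table), with a median log2 fold change of 0.13. Over all tested genes 5.73% rose, and 19.2% were higher at an unadjusted p under 0.05. They were the chemokine gene Cxcl12, to 416 ± 18.7 TPM from 298 ± 12.6, and the connexin genes Gja4, to 43.6 ± 6.27 TPM from 26.7 ± 2.23, and Gja1, to 101 ± 0.107 TPM from 75.2 ± 6.62 (limma adjusted p = 0.0178, 0.0221 and 0.0318). Over the removals 0 to 4 rose: 4 without control replicate 1, 1 without control replicate 3 or Gata2cKO replicate 1, and 0 without Gata2cKO replicate 2, Gata2cKO replicate 3 or control replicate 2.

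The summed level of endothelial markers was higher in Gata2cKO, although only some of them passed the threshold. Over 14 markers it was 434, 564 and 583 TPM in controls and 604, 696 and 725 TPM in Gata2cKO, for replicates 1 to 3. Of 13 tested, 3 rose by limma (Pecam1, Emcn and Esam) and 0 fell, beside 5.73% and 1.74% of all tested genes. At an unadjusted p under 0.05 they were 9 and 0, where 19.2% of all tested genes were higher and 8.17% lower. The authors' deposited table calls 5 higher and 0 lower, where 6.69% and 6.58% of all genes were. Groups did not overlap, with Gata2cKO higher, for 9 of the 14 markers and for 23.4% of tested genes. Kdr, a defining endothelial receptor gene, had a limma adjusted p of 0.999. Control replicate 1 was lowest both for the endothelial sum and for Foxc2, which was not particular to them. Among controls it was also lowest for Foxd1 and for the sums of urogenital mesenchyme (7587 against 8984 and 9435 TPM) and mesothelial markers (391 against 514 and 457 TPM). It was the highest control for the sums of Wolffian duct epithelium and of lymphatic markers. Lymphatic markers, of which 6 of 7 are listed, summed to 20.6 to 21.9 TPM in controls and 23.8 to 27.2 TPM in Gata2cKO, with Lyve1 the 1 that rose of 3 tested, a call kept in 1 of 6 removals (adjusted p up to 0.0934, without Gata2cKO replicate 3). The defining lymphatic factor Prox1 was at 0.296 ± 0.0816 and 0.530 ± 0.325 TPM, below the filter. Mesothelial markers, 9 of 9 listed, summed to 391 to 514 TPM in controls and 636 to 730 TPM in Gata2cKO, and 4 of them rose with 0 that fell (6 and 0 at an unadjusted p under 0.05), to be read beside the same shares of all genes, 5.73% by limma and 19.2% unadjusted. The part of these cell types in the forkhead levels was not tested.

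Foxd1 can be set beside markers of the metanephros. Of the 10 written, 5 are listed, and their sum was 76.9 to 83.7 TPM in controls and 138 to 140 TPM in Gata2cKO, with Podxl and Aqp1 the most abundant, and all 4 tested rose, where 5.73% of all tested genes did. Eya1, the fifth, was below the filter at 0.216 ± 0.0634 and 0.124 ± 0.0140 TPM, lower in Gata2cKO with no overlap. Which cells the RNA of these markers came from was not tested. Foxd1 differed 5.57-fold between controls and 3.58-fold between Gata2cKO libraries, and the part of metanephric tissue in its level was not tested. The other 5, Six2 among them, are not analysed here. Of 17 tested genes linked to Foxd1 in stroma, 2 rose and 2 fell, beside 5.73% and 1.74% of all tested genes, with a median log2 fold change of -0.03 (0 to 2 and 2 to 3 when a library was left out). At an unadjusted p under 0.05, 4 were higher and 5 lower, beside 19.2% and 8.17%. The authors' deposited table calls 2 higher and 5 lower of the 19 listed, where 6.69% and 6.58% of all genes were. The basic helix-loop-helix gene Tcf21 fell to 449 ± 15.2 TPM from 766 ± 63.2 and the matricellular gene Smoc2 to 26.4 ± 0.722 TPM from 41.1 ± 1.84 (limma adjusted p = 0.00856 and 0.00971), and both were called in each removal. The matrix genes Tnc and Col3a1 rose, Tnc to 11.8 ± 0.963 TPM from 7.30 ± 1.18 (limma adjusted p = 0.0276; 0.106 without Gata2cKO replicate 1) and Col3a1 to 2107 ± 118 TPM from 1606 ± 69.9 (limma adjusted p = 0.0414). The Col3a1 call was kept in 1 of 6 removals (adjusted p up to 0.142, without Gata2cKO replicate 3), and lost with median-of-ratios scaling and with no filter.

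The tested genes whose profile over the 6 libraries was most like that of Foxl1 were Rab3d, Pdk3, Sqrdl, Slc1a4 and Ebp, with Pearson correlations of log2(TPM + 1) between 0.993 and 0.999. The 6 points are 3 libraries of each of 2 genotypes, so a difference between the groups enters each correlation. Rab3d, a small GTPase gene of secretory vesicles, was at 8.62, 9.25 and 8.23 TPM in controls and at 12.5, 13.8 and 12.6 TPM in Gata2cKO. The order of its libraries was that of Foxl1 in controls but not in Gata2cKO. Its log2 fold change of 0.53 (limma adjusted p = 0.0175; 0.0699 without Gata2cKO replicate 1) was far smaller than that of Foxl1. For Foxf1 the 5 most alike were Rpa1, Tfap2b, Vwa2, Rnh1 and Ston1 (0.984 to 0.995), and none of them passed the threshold by limma. The lists for Foxl1 and Foxf1 had no gene in common. Between the 2 genes themselves the correlation was 0.82, and that of Foxl1 with Foxc2 was 0.89.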

How the data were processed

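RNA was isolated with the PicoPure kit, and poly-T beads and random hexamers were used for the libraries, per the labels' protocols. The authors deposited a table with a TPM value per gene and library, and with their log2 fold change, p-value and adjusted p-value. The unit was read from the values, since each library sums to between 997351 and 998844. Per the submitters' processing notes, STAR 2.7.11a, DESeq2, DESeq and GRCm38 were used, without a stated role. Quantifier, annotation release and filters: not given in the sources used here.

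Genes with 1 TPM or more in at least 3 libraries (12300) were fitted as log2(TPM + 1) with limma 3.58.1 (R 4.3.3, limma-trend, group as the only term), with Benjamini-Hochberg adjustment over all of them and a threshold of 0.05, two-sided. Standard errors and adjusted p-values are from this fit unless the authors' deposited table is named, fold changes are Gata2cKO minus control, and folds are ratios of mean TPM. The log2 fold change understates that of low genes. The fit was tested on simulated data.

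Positions are GENCODE M21 (GRCm38), matched by identifier without version for 14345 genes. Forkhead genes, gene lists and markers were chosen with earlier results of these data known. Named from each list were up to 3 genes of smallest adjusted p, up to 2 of the less common direction, or the most abundant, and the nearest neighbours of Foxl1. Members of lists with no value of their own in the text were named after their values were seen. So were Banp, Eya1, Kdr, Lyve1, Pax2, Prox1, Ret, Shh, Tbx18, Tff3 and Vim. The search for the 4 letters GATA was also added after values were seen. Of the markers of testis and ovary, Mullerian duct, and urogenital sinus, 5, 5 and 2 were tested. By limma they gave 0 calls in either direction, beside 5.73% and 1.74% of all tested genes. At an unadjusted p under 0.05, 1 was lower for testis and ovary and 0 passed for the others, beside 19.2% higher and 8.17% lower. The authors' deposited table calls 1 higher for Mullerian duct, where 6.69% of all genes were. So few genes can hold 0 calls at such shares, and nothing is read from these counts.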

Additional observations from a re-analysis of the deposited data

How the results depend on the processing

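Under 14 alternatives Foxl1, Foxf1 and Foxc2 remained higher and Foxc1 and Foxd1 lower in Gata2cKO. The log2 fold change of Foxl1 was 3.69 with a pseudocount of 0.1, which weighs low control values more, and 2.99 to 3.40 when 1 library was left out. In the 8 alternatives that keep all libraries Foxl1 and Foxc2 were counted as higher in 8 and Foxf1 in 3, and Foxc1 as lower in 1, upper-quartile scaling. Over all genes 919 passed (705 higher, 214 lower), and without 1 library 116 to 1539 (87 to 1108 higher, 29 to 431 lower), fewest without Gata2cKO replicate 1 and most without control replicate 1. Median-of-ratios scaling gave 487 higher and 400 lower, upper-quartile scaling 578 and 342, and mitochondrial genes taken out 432 and 282, with a median log2 fold change of all genes of 0.05 as deposited and near 0 (-0.0033) with median-of-ratios scaling. Of 30 named genes past the threshold outside the 5 forkheads, 6 passed in every alternative they were tested in, and 4 of these in all 14, as the other 2 did not reach the filter of 5 TPM. Same-numbered samples correlated at 0.25, -0.07 and 0.04 in their deviations and 2 of 6 samples lay closest to their own number, so the numbers were not taken as pairs. With a replicate block 774 genes passed (584 higher, 190 lower), the log2 fold change of Foxl1 was 3.18 (SE 0.11), Foxf1 was not past the threshold, Foxs1 was (adjusted p = 0.0261), and 27 of the 30 were, Col3a1 not among them (0.0603). TPM gives no depth, so low levels such as Foxl1 in controls carry no counting interval.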
